A study of Mus musculus with 20 samples.

Results

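RNA editing and gene expression were compared between fixed mouse embryo libraries made with a rabbit IgG and untreated libraries, with 2 libraries in each group. These are 4 of the 20 libraries of the series, and they were chosen by their labels alone. All 4 came from WT C57BL/6J embryos at E10.5, sampled as whole embryo. In the IgG group, tissue fixed with 0.2% FA received rabbit IgG as primary antibody, then a secondary antibody raised in guinea pig against rabbit, and then the fusion rAPOBEC1-pAG-hADAR2. The untreated group received neither antibody nor the fusion protein. Its titles and treatment label call it fixed, while its fixation label reads none, so fixation and the antibody-enzyme treatment cannot be told apart here. The labels do not say that replicates came from separate embryos, so every p-value reflects how far these libraries spread, and part of that spread may be technical.

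The assay marks RNA near an antibody by changing its bases. The pAG part binds antibody, rat APOBEC1 deaminates cytidine to uridine (read as C-to-T) and prefers a cytidine that follows A or U, and human ADAR2 deaminates adenosine to inosine (read as A-to-G) and favours A or U before the edited base. A non-specific IgG has no intended RNA-binding target, so this group measures the editing left by the fusion protein without a specific antibody. The embryo has ADAR enzymes of its own, and sites they edit appear in untreated tissue as well. G3BP1, the target of the third antibody group of the same tables, is a core protein of stress granules.

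Editing was taken as edited reads over covering reads at 59355 sites with 10 or more covering reads in each of the 4 libraries, 14078 A-to-G and 45277 C-to-T by transcript strand. Summed over those sites, the IgG libraries had 12133898 and 7885820 covering reads and the untreated libraries 7018272 and 2001010, so untreated replicate 2 gives the least precise shares. Among edited sites, 77.3% and 78.5% in the IgG libraries and 75.9% and 76.7% in the untreated libraries had exactly 2 edited reads, and 1 edited read was rarer than 2 in each. How single edited reads were treated before deposition is not given in the sources used here. Embryo markers checked the tissue label. Across these 4 libraries Myl7 (heart) was at 1808 to 3099 TPM, Afp (yolk sac and liver) at 199 to 421 TPM and Hoxb9 (trunk) at 438 to 692 TPM, while neuronal Gria2 was at 0.717 to 1.72 TPM. A second table, labelled fresh-frozen E10.5 embryo and made with the same IgG and untreated scheme, is used below for comparison. Its 6 libraries had Myl7 at 0 to 10.7 TPM, Afp at 0 to 1.02 TPM, Hoxb9 at 0 to 0.445 TPM and Gria2 at 248 to 420 TPM, which goes against the label.

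At 8 A-to-G sites there were at least 2 edited reads in both IgG libraries and 0 in both untreated libraries, in the fixed table and again in the table labelled fresh-frozen. They are shown because they are the individual positions at which IgG-only editing was seen in both tables. This class was defined after values had been seen, so the fixed shares at these sites are a description. Each sequence is the transcript strand of the GENCODE M21 transcript (mm10/GRCm38), 5′ to 3′, with the edited adenosine in capitals and 10 bases on each side.
Ube2d3, chr3:135465934-135465934, plus strand, 3′UTR: gctattagttAatctatcttc
Ubap1, chr4:41389472-41389472, plus strand, 3′UTR: cccctgtgctAggaagctgtc
Ccni, chr5:93183290-93183290, minus strand, coding: acctgtgacaAaggagcattc
Gatc, chr5:115333375-115333375, minus strand, 3′UTR: cctcaactcaAggtgacccat
Mest, chr6:30747382-30747382, plus strand, 3′UTR: gtgacatgatAatcctctcat
Numa1, chr7:102014433-102014433, plus strand, 3′UTR: ggtgccttctAggcgtctttc
Herpud2, chr9:25108507-25108507, minus strand, 3′UTR: gttcatagctAgatggccagc
Nme1, chr11:93959375-93959375, minus strand, 3′UTR: ctggttttctAcctgcttact
All 8 adenosines follow A or T in these sequences, and 6 of the 8 follow T.

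The Mest site had the most edited reads of the 8. Mest is an imprinted gene expressed from the paternal allele in embryonic mesoderm. Its 3′UTR site was edited in 21 of 751 and 24 of 541 reads with IgG (2.80%, 95% Wilson interval 1.84 to 4.24, and 4.44%, 3.0 to 6.52), against 0 of 468 and 0 of 124 reads in untreated libraries, which allows shares of up to 0.641% and 2.42%. That both IgG libraries were above both untreated libraries follows from how the site was chosen. The intervals of IgG replicate 1 and untreated replicate 1 do not meet. The limit of untreated replicate 2, 2.42%, lies inside the interval of IgG replicate 1. Intervals and limits cover counting error only. A limit is 3 edited reads over the covering reads, and is not the top of a Wilson interval. Limits would be too low if single edited reads had been recorded as 0, which was not tested. In the table labelled fresh-frozen the same base was edited in 36 of 322 and 19 of 269 reads with IgG, against 0 of 346 and 0 of 276 untreated reads. In the quasi-binomial fit over the 2751 sites with enough edited reads in the fixed table, Mest had a log2 odds ratio of 5.43 (SE 2.05) and an adjusted p of 0.760, so it did not pass the threshold. None of the 2751 sites passed (0.0%), with 3 higher and 33 lower sites at an unadjusted p under 0.05.

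The Ubap1 site, in the 3′UTR of a subunit of the ESCRT-I sorting complex, was edited in 6 of 195 and 8 of 144 reads with IgG, against 0 of 138 and 0 of 51 untreated reads. Its log2 odds ratio was 4.08 (SE 2.30, adjusted p 0.760 in the quasi-binomial fit). Mest and Ubap1 were the 2 sites, of 339 edited with IgG alone in the fixed table, that had 6 or more edited reads in both IgG libraries. The site in Ube2d3, a ubiquitin-conjugating enzyme, was edited in 9 of 133 and 3 of 97 reads with IgG, against 0 of 96 and 0 of 12 untreated reads. The coding site in the cyclin gene Ccni was edited in 6 of 148 and 3 of 53 reads with IgG, against 0 of 73 and 0 of 14 untreated reads. For both genes, untreated replicate 2 had so few reads that 0 edited reads allows a share of up to 25.0% at Ube2d3 and 21.4% at Ccni. The other sites were edited at lower counts. Nme1, a nucleoside diphosphate kinase, had 4 of 479 and 6 of 390 reads edited with IgG, against 0 of 359 and 0 of 95 untreated reads. Numa1, a spindle-pole protein, had 2 of 262 and 5 of 202 reads edited with IgG, against 0 of 115 and 0 of 32 untreated reads. Gatc, a subunit of the mitochondrial glutamyl-tRNA amidotransferase, had 2 of 222 and 2 of 200 reads edited with IgG, against 0 of 170 and 0 of 54 untreated reads. Herpud2, an endoplasmic reticulum membrane protein, had 2 to 4 edited reads in each IgG library and 0 in the untreated ones. The highest IgG share of the 8 sites, at Herpud2, thus rested on few reads. How large an untreated share its 0 edited reads allow is not given here.

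**Figure D1:**
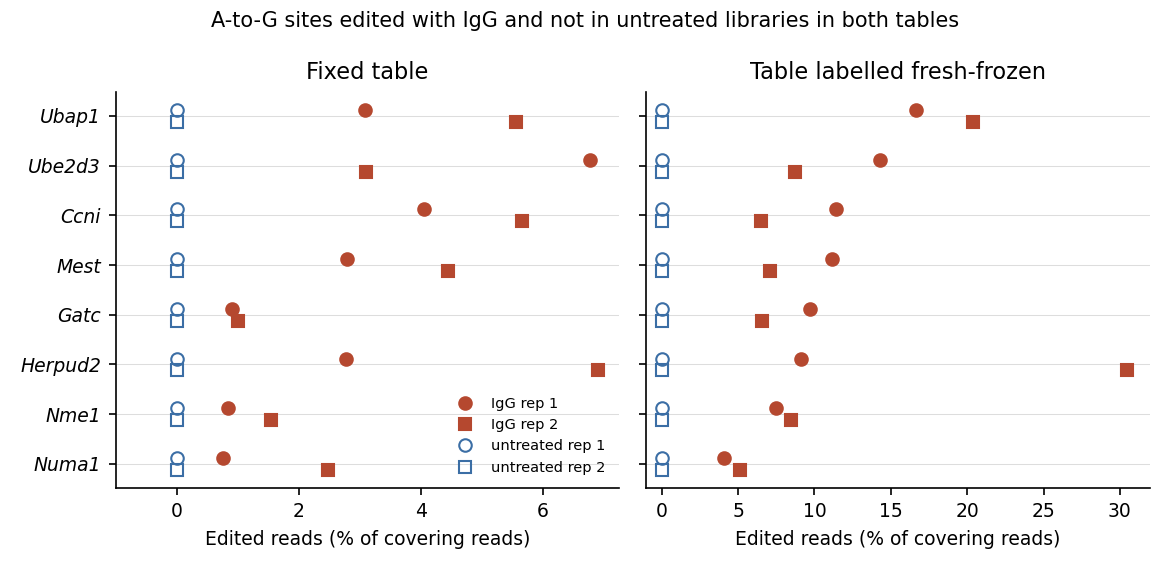
Edited share in percent of covering reads (horizontal axis) at the 8 A-to-G sites edited with IgG and not in untreated libraries in both tables. Filled red symbols are IgG libraries and open blue symbols untreated libraries, and each panel has its own scale. All untreated points are at 0. IgG points lie between 0.763% and 6.90% in the fixed table.

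Sites were next chosen by their values in the other table, and were measured where covered in the fixed table. Covered here means listed in the table and with enough reads. How the authors chose the sites to list is not given in the sources used here. If listing rested on editing in the fixed libraries, the shares below are not independent of the choice. Such dependence was not tested. Of 629 A-to-G sites edited with IgG alone in the table labelled fresh-frozen, 65 were covered in the fixed table, each in a different gene, 60 of them in 3′UTRs and 5 in coding sequence. In the fixed embryo these 65 sites were edited in 101 of 15477 and 104 of 10209 reads with IgG (0.653% and 1.02%), against 3 of 9476 and 1 of 2706 reads in untreated libraries (0.0317% and 0.0370%). The mean was 0.836% ± 0.259 with IgG and 0.0343% ± 0.0037 in untreated libraries (SD, n = 2 each), a ratio of 24.4. Both IgG libraries exceeded both untreated ones. With 2 libraries in each group, the two-sided exact permutation test gave p = 0.33, the smallest it can give. At 37 sites edited reads were found with IgG alone, at 3 in both groups, at 0 in untreated libraries alone, and at 25 in neither.

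The difference was smaller but in the same direction without the most edited sites. Without Mest, the other 64 sites had 0.543% and 0.827% with IgG, against 0.0333% and 0.0387% in untreated libraries. Without all 8 sites listed above, the 57 left had 0.371% and 0.575% with IgG, against 0.0375% and 0.0432% in untreated libraries, a ratio of 11.7. With each site thinned to the same number of reads in every library, the 65 sites had 0.776% and 0.702% with IgG, against 0.0370% in each untreated library. Thinning can leave single edited reads in the deeper libraries, while these were rare as deposited. Thinned shares are therefore not fully alike between libraries, and whether the gap holds at equal depth is not settled. The anti-G3BP1 libraries of the fixed table had 1.75% and 1.89% at these sites. In the other direction, 20 of the 86 A-to-G sites edited with IgG alone in the fixed table were covered in the table labelled fresh-frozen. They had 5.61% and 5.31% edited reads there with IgG, against 0.105% and 0.112% in untreated libraries. The limit given above for listed sites holds in this direction too.

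Few C-to-T sites could be measured in this way, too few for a contrast with A-to-G sites. Of 253 C-to-T sites edited with IgG alone in the fixed table, 15 were covered in the other table, where they had 0.851% and 0.607% with IgG, against 0.712% and 0.190% in untreated libraries. The groups overlapped (exact permutation p = 0.667, two-sided). Of 249 such sites of the other table, 4 were covered in the fixed embryo, at 0.299% and 0 with IgG, against 0.531% and 0 in untreated libraries. At 4 sites the depth could not show a difference. No C-to-T site was edited with IgG alone in both tables. With only 15 and 4 such sites covered in both, hardly any match was possible, so no conclusion is drawn from this count.

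The bases around the 65 sites, which include the 25 with no edited read in the fixed embryo, were counted beside those of other A-to-G sites. An A or T stood before the edited adenosine at 61 of the 65 sites (93.8%), against 71.4% of the 777 A-to-G sites covered in both tables and 39.7% of all A-to-G sites with sequence in the fixed table. A T stood there at 39 of the 65, against 36.3% of the 777 and 16.1% of all. The letters TAG, read on the transcript strand with the adenosine in the middle, were found at 26 of the 65 (40.0%), against 18.7% of the 777 and 6.32% of all. These shares are counts of letters and were not tested. The 86 sites edited with IgG alone in the fixed table, most of them with few edited reads, had A or T before the adenosine at 45.3%.

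Total editing was not higher with IgG. A-to-G sites had 0.454% and 0.513% edited reads in the IgG libraries, against 0.540% and 0.805% in the untreated libraries. Both IgG values were below both untreated values (log2 ratio -0.48, two-sided exact permutation p = 0.33, the smallest possible). The groups overlapped (exact permutation p = 0.667) with reads thinned, at 50 or more reads per site, without sites edited in 50% or more, and without pseudogene sites. C-to-T sites had 0.336% and 0.369% in the IgG libraries, against 0.344% and 0.496% in the untreated libraries, and the groups overlapped (log2 ratio -0.25, exact permutation p = 0.667). The highest share of both types was in untreated replicate 2, the library with 33.7 reads per site, against 204 and 133 in the IgG libraries and 118 in untreated replicate 1. Without that library the log2 ratio was -0.16 for A-to-G and 0.03 for C-to-T. Over all sites it was -0.03 without that library, against -0.32 with it. With reads thinned to equal depth the log2 ratio was -0.23 for A-to-G and -0.18 over all sites.

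**Figure D2:**
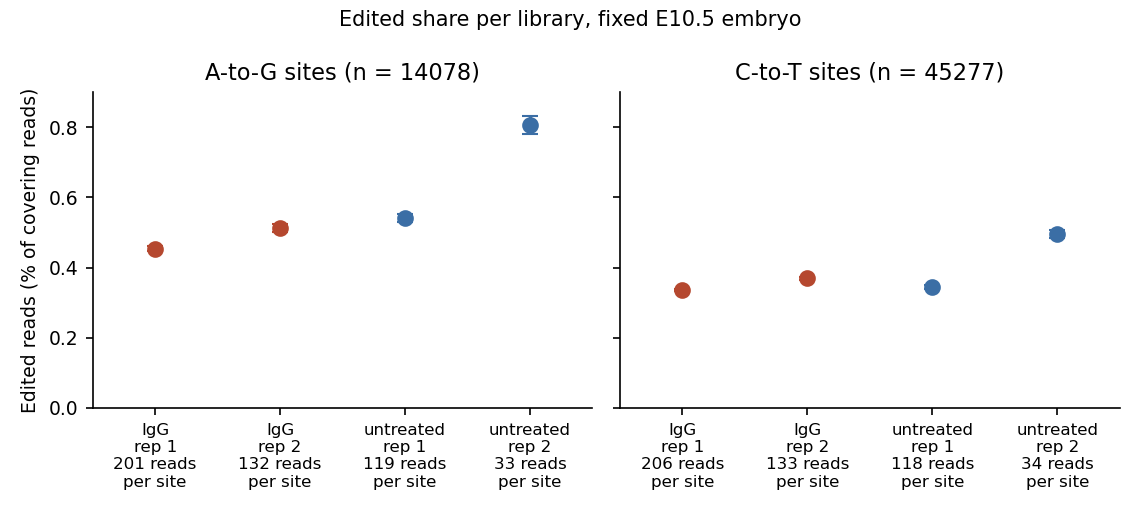
Edited reads in percent of covering reads (vertical axis) for each library, with 95% Wilson intervals for counting error. Red points are IgG and blue points untreated libraries, with mean reads per site under each name. Untreated replicate 2, the shallowest, is highest in both panels, at 0.805% for A-to-G and 0.496% for C-to-T.

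Editing was also compared by the base before the edited site. For C-to-T, the share after A or T divided by the share after C or G within a library was 0.902 and 0.927 with IgG, against 0.690 and 0.769 in untreated libraries. The IgG mean was 1.25 times the untreated mean, and both IgG libraries were above both untreated ones (exact permutation p = 0.33, the smallest possible). For A-to-G, the ratio was 1.10 and 1.14 with IgG, against 1.01 and 1.09 in untreated libraries, a narrower gap that ended at 50 or more reads per site (log2 ratio -0.0013, groups overlapping). The table labelled fresh-frozen had C-to-T ratios of 0.718 and 0.715 with IgG, against 0.434 and 0.401 in untreated libraries, and A-to-G ratios of 1.21 and 1.26 with IgG, against 0.694 and 0.722 in untreated libraries. Over both tables, with libraries permuted within each table, the mean log2 ratio of IgG to untreated was 0.55 for C-to-T and 0.45 for A-to-G, each with an exact permutation p of 0.0556, the smallest of 36 arrangements.

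**Figure D3:**
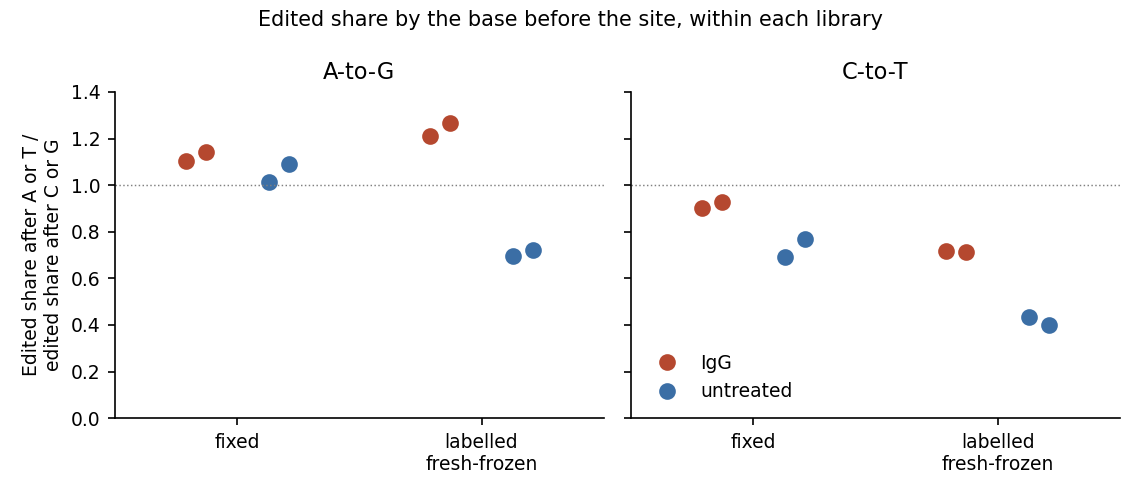
Edited share at sites after A or T divided by that at sites after C or G (vertical axis, a ratio without unit), per library, in the fixed table and in the table labelled fresh-frozen. Red points are IgG and blue points untreated libraries. Red lies above blue in each panel and table. The widest gap in the fixed table is for C-to-T, at 0.902 and 0.927 with IgG against 0.690 and 0.769 in untreated libraries.

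Some sites read as edited in both groups, without the fusion protein as well as with it. At least 2 edited reads in all 4 libraries were found at 62 A-to-G and 38 C-to-T sites. Of these, 43 and 23 lay in pseudogenes, and 42 and 22 of those were above 80% in every library. Reads of a pseudogene and its parent gene can be exchanged, so these values are uncertain. Rps19-ps6, a ribosomal protein pseudogene, is an example, with all 161 and 89 reads read as edited with IgG and all 137 and 49 reads in untreated libraries. The 941 pseudogene sites were 1.59% of all sites and held 15.6% and 15.7% of edited reads with IgG, against 21.5% and 18.3% in untreated libraries. The following 3′UTR sites outside pseudogenes are shown for comparison with the IgG-only sites above, with the edited adenosine again in capitals.
Hjurp, chr1:88263988-88263988, minus strand: ctgcctttgaAgtcccacctg
Rpa1, chr11:75301015-75301015, minus strand: aacagaaattAtgtcacaagt
Syncrip, chr9:88450023-88450023, minus strand: attcttttacAtttatttatc
Hjurp, the chaperone that loads the centromeric histone CENP-A, was edited in 205 of 332 and 102 of 179 reads with IgG (61.7% and 57.0%), against 76 of 116 and 21 of 38 untreated reads (65.5% and 55.3%). Rpa1, the large subunit of the single-stranded DNA binding complex, was edited in 55.7% and 60.4% of reads with IgG, against 55.3% and 56.0% in untreated libraries. Syncrip, an RNA-binding protein, was edited in 24 of 69 and 11 of 38 reads with IgG, against 16 of 37 and 6 of 12 untreated reads. The groups overlapped at Hjurp. At Rpa1 the IgG replicates lay within the counting intervals of the untreated ones. At Syncrip both IgG shares were below the untreated ones, within wide intervals.

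Editing seen in untreated libraries alone was rarer by count, at 13 A-to-G and 35 C-to-T sites against 86 and 253 with IgG alone. These counts were taken at unequal depth. After thinning they were 3 A-to-G sites with IgG alone against 3 in untreated libraries alone, and 1 C-to-T site with IgG alone against 8. The A-to-G site in the 3′UTR of Gen1, a Holliday junction resolvase, was edited in 0 of 54 and 0 of 38 reads with IgG, against 6 of 47 and 2 of 11 untreated reads. The 6 sites of highest IgG share with no edited read in either untreated library rested on few reads. In 2200002D01Rik 2 of 19 and 2 of 19 reads were edited with IgG, against 0 of 32 and 0 of 10 untreated reads. In Dhx38, a splicing helicase, the counts were 0 of 31 and 4 of 20 with IgG, against 0 of 17 and 0 of 10. The other 4, in Polr3e, Ccl27a, Mcmbp and Eif3l, also had no edited read in IgG replicate 1 or untreated libraries. At these depths a difference was not detectable.

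Edited and covering reads were also summed over the sites of each gene. Of 5606 genes with 50 or more covering reads in each library, 0 (0.0%) passed an adjusted p of 0.05 in the quasi-binomial fit, with 2 higher (0.0357%) and 101 lower (1.8%) at an unadjusted p under 0.05. edgeR, DESeq2 and limma also called 0 genes, with 67, 12 and 31 higher and 87, 72 and 243 lower at an unadjusted p under 0.05. The median log2 odds ratio was -0.12. Without untreated replicate 1 the quasi-binomial fit called 3 genes lower (Psap, Arhgdia and Pcbp1). IgG and untreated libraries did not overlap in 17.7% of genes with IgG higher and 14.5% with IgG lower. Among genes with 200 or more covering reads in every library, Mest had the smallest p of those higher with IgG. Its 6 sites together were edited at 1.21% and 1.79% with IgG, against 0 and 0.601% in untreated libraries (log2 odds ratio 3.33, SE 1.43, adjusted p 0.957), and the single 3′UTR site above held 21 of 26 and 24 of 27 of the gene's edited reads with IgG.

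The other genes named on the higher side also missed the threshold. Hmgcs1, an enzyme of cholesterol synthesis, had 0.355% and 0.198% with IgG, against 0.0447% and 0 in untreated libraries. Tcf12, a basic helix-loop-helix factor, had 0.380% and 0.773% with IgG, against 0.0934% and 0. Mta1, a NuRD complex subunit, had 0.357% and 0.3329% with IgG, against 0 and 0.290% in untreated libraries, and in the smooth muscle gene Tagln the groups overlapped. On the lower side, Nudc, a dynein-associated protein, had 0.126% and 0.184% with IgG, against 0.430% and 0.528% in untreated libraries (log2 odds ratio -1.60, SE 0.52, adjusted p 0.957). Mex3a, an RNA-binding protein, had 0.0174% and 0.0775% with IgG, against 0.368% and 0.607%. Aimp1, a scaffold of the multi-synthetase complex, had 0.227% and 0.206% with IgG, against 1.26% and 0.885%. These 3 did not overlap between groups. Ubl7 rested on 1 library, with 0.119% and 0 with IgG, against 0 and 4.40% in untreated libraries. Vcp-rs, a related sequence of Vcp, had 2.17% and 2.13% with IgG, against 3.20% and 3.48%, and may share reads with Vcp.

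Of all 5606 genes tested for editing, 0 (0.0%) were called, so calls cannot set RNP granule genes or known deaminase substrates apart. The 22 tested RNP granule genes together had 0.203% and 0.278% with IgG, against 0.200% and 0.334% in untreated libraries, where all tested genes together had 0.348% and 0.384% against 0.378% and 0.547%. G3bp1 had 0.137% and 0.233% with IgG, against 0.124% and 0.309% (log2 odds ratio 0.09, SE 0.61, adjusted p 0.993, of the opposite sign in 9 other settings). Adar had 0.418% and 0.514% with IgG, against 0.393% and 0, and Adarb1 and Apobec1 were not among the tested genes. The 9 tested genes with known A-to-I recoding sites together had 0.301% and 0.308% with IgG, against 0.222% and 0.583%. The 9 tested genes known as APOBEC1 substrates had 0.251% and 0.267% with IgG, against 0.276% and 0.653%. At the sites edited in both anti-G3BP1 libraries, IgG and untreated libraries overlapped. The 127 such A-to-G sites had 1.83% and 2.21% with IgG, against 1.92% and 2.03% in untreated libraries. The anti-G3BP1 libraries, which chose them, had 3.24% and 3.71%.

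Gene expression was compared on log2(TPM + 1), which understates the change of low genes, for the 18157 genes that reached 1 TPM in 2 or more of the 4 libraries. No gene passed an adjusted p of 0.05 in limma (0.0%), and the smallest adjusted p was 0.225. At an unadjusted p under 0.05, 1542 genes (8.49%) were higher and 480 (2.64%) lower with IgG. The groups did not overlap in 6274 genes with IgG higher (34.6%) and 1938 with IgG lower (10.7%), and the median difference of all genes was 0.14. With the libraries set to the same median these were 3957 (21.8%) and 3656 (20.1%), so differences are also given relative to 0.14. Untreated replicate 2 listed 8601 genes at 0 TPM, against 4407 and 5461 in IgG libraries and 5924 in untreated replicate 1. TPM keeps no read depth, so its part in these differences was not tested. In bulk tissue, fewer cells of a type and less RNA per cell cannot be told apart.

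Most liver and yolk sac transcripts were lower with IgG, and none passed the test singly. Across all tested genes, 10.7% did not overlap with IgG lower and 34.6% with IgG higher (20.1% and 21.8% at the same median). Of 21 tested genes of the list, 17 did not overlap with IgG lower and 1 with IgG higher, the same counts with libraries set to the same median, and the median log2 difference was -0.51 (-0.66 relative to all genes). Afp, the fetal serum protein (chr5:90490737-90508907), had 266 and 199 TPM with IgG, against 418 and 421 TPM in untreated libraries (log2 difference -0.87, SE 0.16, limma adjusted p 0.406). Apoa1, the main apolipoprotein of high-density lipoprotein (chr9:46228580-46230466), had 106 and 69.4 TPM with IgG, against 198 and 222 TPM (-1.28, SE 0.22, adjusted p 0.406). Ttr, the thyroid hormone carrier, had 106 and 104 TPM with IgG, against 187 and 213 TPM (-0.92, SE 0.11, adjusted p 0.406). In each of these genes both IgG libraries were below both untreated libraries by more than the spread within either group. Amn, an endocytic receptor subunit of visceral endoderm, had 2.29 and 1.41 TPM with IgG, against 9.07 and 6.90 TPM. The albumin gene Alb, also of the list, overlapped, with 72.8 and 77.5 TPM with IgG, against 71.2 and 102.6 TPM. The anti-G3BP1 libraries of the same table had 195 and 219 TPM of Afp and 84.4 and 89.8 TPM of Apoa1.

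Genes of the posterior trunk and limbs were on the other side. The counts below stand beside 34.6% of all genes with IgG higher and 10.7% with IgG lower (21.8% and 20.1% at the same median). Hox genes give cells their position along the body axis, and the 5′ groups mark the posterior trunk and limb buds. Of 23 tested Hox genes, 13 did not overlap with IgG higher and 0 with IgG lower (12 and 0 at the same median), with a median log2 difference of 0.55 (0.41 relative to all genes). Hoxd9 (chr2:74697727-74700208) had 32.4 and 42.9 TPM with IgG, against 15.3 and 14.9 TPM in untreated libraries (1.25, SE 0.19, limma adjusted p 0.406). Hoxa7 (chr6:52214491-52221854) had 102 and 104 TPM with IgG, against 55.3 and 61.4 TPM (0.81, SE 0.12, adjusted p 0.406). Hoxd10 had 35.2 and 44.1 TPM with IgG, against 20.6 and 18.5 TPM, and Hoxc10 26.8 and 38.3 TPM, against 18.6 and 14.0 TPM. Hoxb9 overlapped, at 692 and 438 TPM with IgG, against 510 and 473 TPM. The summed level of the Hox list was 2377 and 1817 TPM with IgG, against 1727 and 1686 TPM in untreated libraries. The anti-G3BP1 libraries had a Hox sum of 1717 and 1872 TPM, 27.3 and 24.7 TPM of Hoxd9 and 74.2 and 61.4 TPM of Hoxa7. Of 15 limb bud genes, 9 did not overlap with IgG higher and 0 with IgG lower (8 and 0 at the same median), and their median was 0.46 (0.32 relative to all genes). Lmx1b, which specifies dorsal limb (chr2:33560965-33640511), had 24.8 and 31.6 TPM with IgG, against 14.4 and 9.19 TPM. Pitx1, a hindlimb factor (chr13:55825051-55836192), had 74.5 and 132 TPM with IgG, against 46.1 and 29.2 TPM. Shh, the signal of the posterior limb margin, notochord and floor plate, had 129 and 125 TPM with IgG, against 93.4 and 54.9 TPM. Each of these 3 had both IgG libraries above both untreated ones, and at Shh the untreated replicates lay further apart than the IgG replicates.

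**Figure D4:**
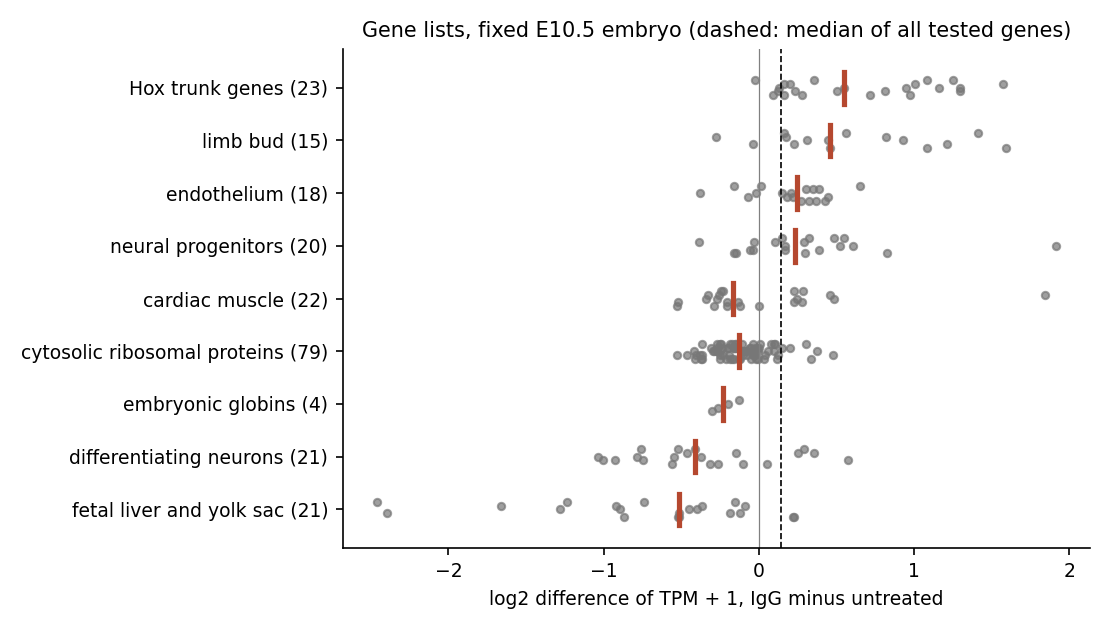
Log2 difference of TPM + 1, IgG minus untreated (horizontal axis), for each tested gene (grey points) of 9 lists, with the number tested in brackets. Red bars are list medians, and the dashed line is the median of all tested genes, 0.14. Hox genes (0.55) and limb bud genes (0.46) lie to its right, and liver and yolk sac genes (-0.51) and differentiating neurons (-0.41) to its left.

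Neural genes were described by 2 lists, which were not tested against each other. Among all genes, 10.7% did not overlap with IgG lower and 34.6% with IgG higher (20.1% and 21.8% at the same median). Of 21 genes of differentiating neurons, 9 did not overlap with IgG lower and 3 with IgG higher (12 and 1 at the same median), with a median of -0.41 (-0.55 relative to all genes). Their summed level was 2330 and 1389 TPM with IgG, against 2313 and 2630 TPM in untreated libraries. IgG replicate 1 thus lay between the untreated libraries in the sum, and only IgG replicate 2 was below both. Nefl, the neurofilament light chain, had 155 and 81.7 TPM with IgG, against 210 and 244 TPM in untreated libraries. Isl2, a motor neuron factor of the same list, was on the other side, at 56.9 and 41.8 TPM with IgG, against 30.1 and 34.8 TPM. Of 20 neural progenitor genes, 8 did not overlap with IgG higher, a share near the 34.6% of all genes, and 2 with IgG lower (7 and 3 at the same median), and the median of 0.23 was 0.09 above that of all genes. Olig2, which marks motor neuron progenitors (chr16:91225457-91228677), had 18.2 and 24.8 TPM with IgG, against 5.98 and 4.02 TPM (1.91, SE 0.27, limma adjusted p 0.406), and the radial glia gene Fabp7 had 311 and 261 TPM with IgG, against 388 and 358 TPM.

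Heart, blood and vessel genes were each described by a list. For all genes the shares without overlap were 34.6% with IgG higher and 10.7% lower (21.8% and 20.1% at the same median). Of 22 cardiac muscle genes, 5 did not overlap with IgG lower and 3 with IgG higher (9 and 1 at the same median), with a median of -0.17 (-0.31 relative to all genes). Myl7, the atrial myosin light chain, had 1808 and 2279 TPM with IgG, against 3099 and 2757 TPM in untreated libraries (-0.53, SE 0.14, limma adjusted p 0.406), while Hand2, a cardiac and limb factor, had 155 and 189 TPM with IgG, against 138 and 111 TPM. Of the embryonic globins, Hbb-bh1 had 3664 and 4021 TPM with IgG, against 4242 and 4563 TPM, and Hbb-y and Hba-x overlapped between groups. The median of the 4 embryonic globin genes tested was -0.23 (-0.37 relative to all genes). Of 18 endothelial genes, 10 did not overlap with IgG higher and 2 with IgG lower (7 and 3 at the same median), with a median of 0.25 (0.10 relative to all genes). Plvap, a protein of endothelial diaphragms, had 144 and 152 TPM with IgG, against 119 and 121 TPM. Of 20 placental and decidual genes, 8 were matched in the table and 4 of these passed the filter on low values. The 8 summed to 39.5 and 38.7 TPM with IgG, against 38.8 and 34.9 TPM.

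**Figure D5:**
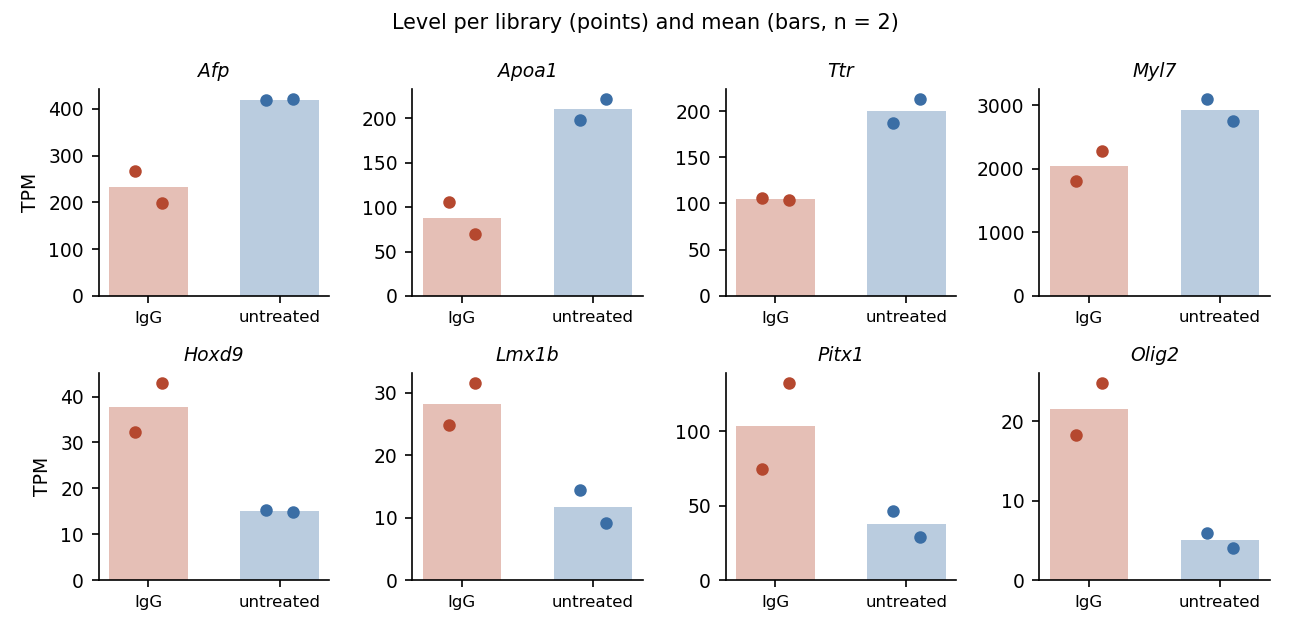
TPM (vertical axes, each from 0) of 8 genes per library (points) and their means (bars, n = 2), IgG in red and untreated in blue. In each of these genes the groups do not overlap, which is a description, since the genes were named for small p-values. The top row (Afp, Apoa1, Ttr, Myl7) is lower with IgG and the bottom row (Hoxd9, Lmx1b, Pitx1, Olig2) higher.

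Housekeeping groups lay at or below the median of all genes. Their counts stand beside 10.7% of all genes with IgG lower and 34.6% with IgG higher (20.1% and 21.8% at the same median). Of 79 cytosolic ribosomal protein genes, 38 did not overlap with IgG lower and 4 with IgG higher (54 and 2 at the same median), and their median was -0.13 (-0.27 relative to all genes). Rpl19 had 386 and 394 TPM with IgG, against 503 and 510 TPM in untreated libraries. Of 36 nuclear genes of the respiratory chain, 17 did not overlap with IgG lower and 0 with IgG higher (25 and 0 at the same median), with a median of -0.12. Medians of the RNP granule, known A-to-I recoding, immediate early, heat shock and hypoxia lists were 0.05 to 0.12 and turned negative with libraries set to the same median, so no direction is given for them. Processed pseudogenes, which can share reads with their parent genes, summed to 51116 and 55297 TPM with IgG, against 66969 and 68264 TPM.

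The genes of smallest p and the genes of the assay were as follows. Those of smallest p were drawn from genes above a minimum level whose groups did not overlap. Their lack of overlap thus follows from the choice. Igdcc3, a cell-surface protein of the DCC family (chr9:65141189-65185872), had 221 and 247 TPM with IgG, against 102 and 111 TPM in untreated libraries (1.12, SE 0.12, limma adjusted p 0.406). Moxd1, a monooxygenase related to dopamine beta-hydroxylase, had 39.3 and 49.1 TPM with IgG, against 16.2 and 14.3 TPM. The other genes of smallest p were mostly pseudogenes. Gm11702 had 21.6 and 16.1 TPM with IgG and was listed at 0 in both untreated libraries, Gm11510 had 96.4 and 102 TPM with IgG, against 28.7 and 40.3 TPM, and Gm29462 had 5.16 TPM in both IgG libraries, against 31.8 and 30.9 TPM. Gm10705 had 2.69 and 1.61 TPM with IgG, against 18.1 and 19.3 TPM. Gm11096 and Gm50174 were listed at 0 in both IgG libraries, against 8.43 to 14.1 TPM. Gm11702 (chr11:115657491-115657559), Gm11096 and Gm50174 are very short genes, for which few reads can give such TPM. TPM keeps no read count, so how many reads these levels rest on is not known. Adar, the endogenous A-to-I editing enzyme, had 23.1 and 20.9 TPM with IgG, against 13.8 and 14.2 TPM (0.61, SE 0.17, adjusted p 0.406). Adarb1, the mouse ADAR2 gene, had 4.07 and 5.27 TPM with IgG, against 3.32 and 3.49 TPM, and overlapped at the same median. Apobec1 had 1.83 and 0.825 TPM with IgG, against 1.03 and 0.941 TPM. G3bp1 had 221 and 216 TPM with IgG, against 203 and 159 TPM (0.28, SE 0.14, adjusted p 0.507).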

How the data were processed

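The deposited editing table gives, per the file headers, covering and edited read counts per site and library. The deposited expression table gives TPM, per the file headers. The submitters' processing notes name HISAT2 2.2.1 and BWA 0.7.17, with featureCounts 2.0.1, GATK 4.5.0.0 and Picard 3.1.1, and give GRCm38 (mm10) as genome. The site filter of the authors is not given in the sources used here. Of 94735 lines, 92951 were unique sites and 59355 had 10 or more reads in the 4 libraries. Edited shares are pooled reads, compared by two-sided exact permutation over libraries. Genes and sites were fitted by a quasi-binomial logistic model with limma 3.58.1 moderation (R 4.3.3, 0.25 reads added), with edgeR 4.0.16 and DESeq2 1.42.0 as alternatives. Sites needed 4 or more edited reads. Expression used limma with trend on log2(TPM + 1). P-values were adjusted by Benjamini-Hochberg over the whole table, with a threshold of 0.05. The fits were first run on simulated data. Editing counts were drawn there without added spread between libraries, and expression with an assumed spread. The simulations therefore do not show how many changes could be found in these libraries. Thinning drew reads without replacement to the lowest depth of a site (seed 20). It can leave single edited reads in deeper libraries, which were rare as deposited, so thinned values do not put libraries on a fully equal footing.

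Members and gene lists were chosen with earlier results of these data known. Named genes are the 5 of smallest p per direction where none was called, up to 4 of smallest p from each list described, the 6 untreated-free sites of highest IgG share, and G3bp1, Adar, Adarb1 and Apobec1. Mest and the other sites found in both tables, Gen1, the sites edited in both groups, and Alb and Hoxb9 were chosen after their values were seen. Settings without pseudogene sites, base-context ratios, sites carried between tables and counts at the same median were added after seeing the data. One gene that the rule names is not reported here.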

Additional observations from a re-analysis of the deposited data

Results flagged for a closer look

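One comparison is listed for a closer look, because the IgG effect on the edited share differed between the 2 tables. At the 2224 sites covered in both, the fixed embryo had 1.04% and 1.10% edited reads with IgG, against 1.21% and 1.58% in untreated libraries, a log2 ratio of -0.39. The table labelled fresh-frozen E10.5 embryo had 1.35% and 1.36% with IgG, against 0.762% and 0.747% in untreated libraries, a log2 ratio of 0.84. The difference, fixed minus labelled fresh-frozen, was -1.23, with an exact permutation p of 0.0556 over 36 arrangements, the smallest they can give. With reads thinned it was -0.80 (exact permutation p = 0.278), and the log2 ratio of the fixed embryo was then 0.02, so its direction did not hold. Without sites edited in 50% or more, the fixed embryo had 0.305% and 0.351% with IgG, against 0.241% and 0.375% in untreated libraries, a log2 ratio of 0.09, and the difference was -1.37 (exact permutation p = 0.222). Tissue markers differ between the tables as well, so table and tissue cannot be told apart.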

How the results depend on the processing

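Depth and replicate number limit these results: untreated replicate 2 had 33.7 reads per site, and 2 libraries in each group cannot give an exact p under 0.33. Same-numbered replicates did not deviate together (r = -0.0013 for editing, across genes), so their numbers were not taken to pair them. With a replicate block, editing called 0 genes (3 higher and 223 lower unadjusted) and 0 sites, and expression called 0 genes.

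The log2 ratio of the total edited share was -0.57 to -0.03 with 1 library left out, -0.35 and -0.47 at 20 and 50 or more reads per site, -0.18 with reads thinned and -0.26 without pseudogene sites. For C-to-T sites it was -0.49 to 0.034 with 1 library left out, 0.034 being without untreated replicate 2. The A-to-G base-context ratio was -0.0013 at 50 or more reads. Leaving out 1 library gave 0 to 3 called genes for editing. Without untreated replicate 1, Psap, Arhgdia and Pcbp1 were lower with IgG (adjusted p 0.000996, 0.0349 and 0.00733, quasi-binomial fit), against untreated replicate 2 alone, the lone sample being assumed to vary like the others. The cause was not tested.

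Signs turned for genes that had passed no test. In editing, G3bp1 was -0.11 at 20 or more reads, -0.21 at C-to-T sites, -1.19 thinned, -0.11 with the block, -0.86 to 0.50 with 1 library left out, -0.18 in limma, -0.085 in edgeR and -0.11 in DESeq2. Adar was -0.45 at 20 or more reads, and with 1 library left out Tagln was -0.20 to 5.91 and Ubl7 -6.00 to 1.47. In expression, Apobec1 was -0.12 to 0.51 and Hbb-bh0 -0.49 to 0.24 with 1 library left out, Hbb-bh1 was 0.080 after quantile normalization and Calr -0.016 at the same median. No expression setting called a gene, and unadjusted counts were 262 higher and 268 lower without IgG replicate 1 and 4057 and 918 without untreated replicate 1.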

Other observations

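Counts of further gene groups stand beside the 34.6% of all tested genes that did not overlap with IgG higher and the 10.7% with IgG lower. At the same median these shares were 21.8% and 20.1%. Of 22 head and pharyngeal arch genes tested, 9 did not overlap with IgG higher, a share near that of all genes, and 1 with IgG lower (7 and 2 at the same median), with a median log2 difference of 0.30 (0.16 relative to all genes). Of 20 genes of the gut, lung and kidney primordia, 10 did not overlap with IgG higher and 2 with IgG lower (6 and 3 at the same median), with a median of 0.24 (0.09 relative to all genes). Of 11 genes of interferon response and RNA sensing, 7 did not overlap with IgG higher and 1 with IgG lower (4 and 1 at the same median), with a median of 0.45 (0.30 relative to all genes). Most of these were low. Isg15, a ubiquitin-like protein induced by interferon, had 3.17 and 4.23 TPM with IgG, against 1.13 and 0 TPM in untreated libraries. The cytosolic RNA sensor gene Ddx58 had 3.16 and 2.74 TPM with IgG, against 1.92 and 1.44 TPM. Bst2, of the same list, went the other way, with 13.2 and 9.87 TPM with IgG, against 17.6 and 14.1 TPM. Ifit2 overlapped, with 4.29 and 5.67 TPM with IgG, against 4.46 and 1.94 TPM.

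Some sites were edited in 1 untreated library alone. Neighbouring sites in Aimp1 had 7 of 66 and 7 of 67 reads edited in untreated replicate 1, with 0 in the other 3 libraries. A site in Nudc had 0 of 453 and 0 of 298 reads with IgG, against 7 of 229 and 0 of 62 in untreated libraries, and a site in Ubl7 had 0 of 286 and 0 of 158 with IgG, against 0 of 121 and 11 of 67. Without untreated replicate 2 the log2 odds ratio of Ubl7 was 1.47, against -4.08 with it.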
